A study of Mus musculus with 4 samples.

Results

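The T cell and NK lineage genes are 30 genes that build and run the T cell antigen receptor, set T cell identity, or arm natural killer (NK) cells, and they were read here in conventional dendritic cells of type 2 (cDC2). They were chosen by symbol, from probe sets annotated to exactly 1 listed gene, with the brightest probe set taken for a gene. Of the 30 genes, 28 had such a probe set, out of 19938 genes measured in all. Lck, the kinase that starts T cell receptor signalling, and Tcf7, a transcription factor of early T cells, were not analysed here.

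The arrays carried RNA from cDC2 sorted from the spleens of chimeric mice bearing a Zbtb46-GFP reporter, which marks cells that express a transcription factor gene of conventional dendritic cells. The wild-type (WT) group and the group labelled Id2 KO (the KO-labelled arrays) held 2 arrays each, and the reporter is named for both. Donor and host strains, age, the Id2 allele and the share of host cells left in the chimeras were not given in the sources used here, and neither was whether each replicate is a separate mouse. The p-values therefore rest on the spread between arrays alone, which may be technical. Bone marrow is named as a source in the series' design text, and spleen in the sample labels.

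T cells read antigen through a receptor whose signal leaves the cell surface through the CD3 chains and CD247, kinases such as LCK and ZAP70, and the scaffold protein LAT. NK cells instead weigh signals from activating and inhibitory receptors, many of them lectin-like proteins of the Klr families, and kill with perforin and granzymes. Id2 holds E proteins away from DNA. NK cells and other innate lymphoid cells (ILC) need Id2, whereas early T cell development depends on E proteins. Several genes of these lineages are also used by dendritic cells: CD5 marks some of them, CD94 (encoded by Klrd1) has been found on them, and T-bet (Tbx21) is present in some cDC2.

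The labels were checked on the arrays first. Id2 was at log2 9.14 and 9.08 in WT and at 8.71 and 8.97 in the KO-labelled arrays, a difference of -0.27 that did not pass (limma, adjusted p = 0.172), so every direction below rests on the labels. The dendritic cell genes Itgax (12.84 and 12.85 in WT, 12.81 and 12.86 in the KO-labelled arrays) and Sirpa (12.41 and 12.39, then 12.14 and 12.20) were bright on every array. Xist was at 11.96 on WT arrays and at 6.67 and 6.68 on the others. The Y-linked gene Kdm5d was at 5.72 and 5.53 in WT and at 8.08 and 8.50 in the KO-labelled arrays. The groups thus differed in sex-linked genes, and sex and genotype cannot be told apart in any difference below. Of the marker lists, all 11 tested neutrophil genes were lower in the KO-labelled arrays (median difference -2.73), as were 3 of 5 tested monocyte and 3 of 4 tested erythroid genes. All 8 tested B cell genes (median 1.27 over 9 measured) and all 9 cell cycle genes (median 1.28) were higher, as were 3 of 7 plasmacytoid dendritic cell genes and 1 of 4 plasma cell genes. Among cDC2 genes 3 of 9 were lower and 1 higher, and among cDC1 genes 1 of 5 was lower. The lower cDC2 genes were Zbtb46 (difference -1.02), the gene of the reporter, Itgam (-0.998) and Cd4 (-0.84). Zbtb46 was at 7.57 and 7.55 in WT and at 6.49 and 6.59 in the KO-labelled arrays. The latter values lie under log2 6.77, the level used below to filter dim genes. Another cDC2 gene, Clec10a, lay under that level on all arrays (6.17 to 6.50). The higher cDC2 gene was Esam (0.53). Of all tested genes, 2.52% were lower and 5.53% higher. The part of these shifts in the values below was not tested.

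In the sorted cells, 10 of the 28 measured T cell and NK genes lay below the filter on dim genes, and 16 of the 18 tested did not pass the test between the groups. Cd3d, a CD3 chain, was 1.35-fold lower in the KO-labelled arrays, and Klrd1, the gene of CD94, was 1.32-fold lower. No member was higher by the test. The filter level was log2 6.77, the 40th percentile of all genes, and the tested genes were 13 of the T cell genes and 5 of the NK, granule and T-box genes. A difference was called when limma's Benjamini-Hochberg adjusted p over all 11963 tested genes was under 0.05, and 8.04% of those genes were called. Among the 18 members 2 were lower, against 2.52% of all tested genes, and 0 were higher, against 5.53%. At an unadjusted p under 0.05, 4 of the 18 were lower, beside 7.61% of all tested genes, and 1 was higher, beside 13.1%. In a fit of all 19938 genes, which called 4.17% of them and 1.42% as lower, Cd3d was lower and 0 of the 28 members were higher. Both calls were lost with either WT array left out, when 0 members were lower in limma.

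**Figure D1:**
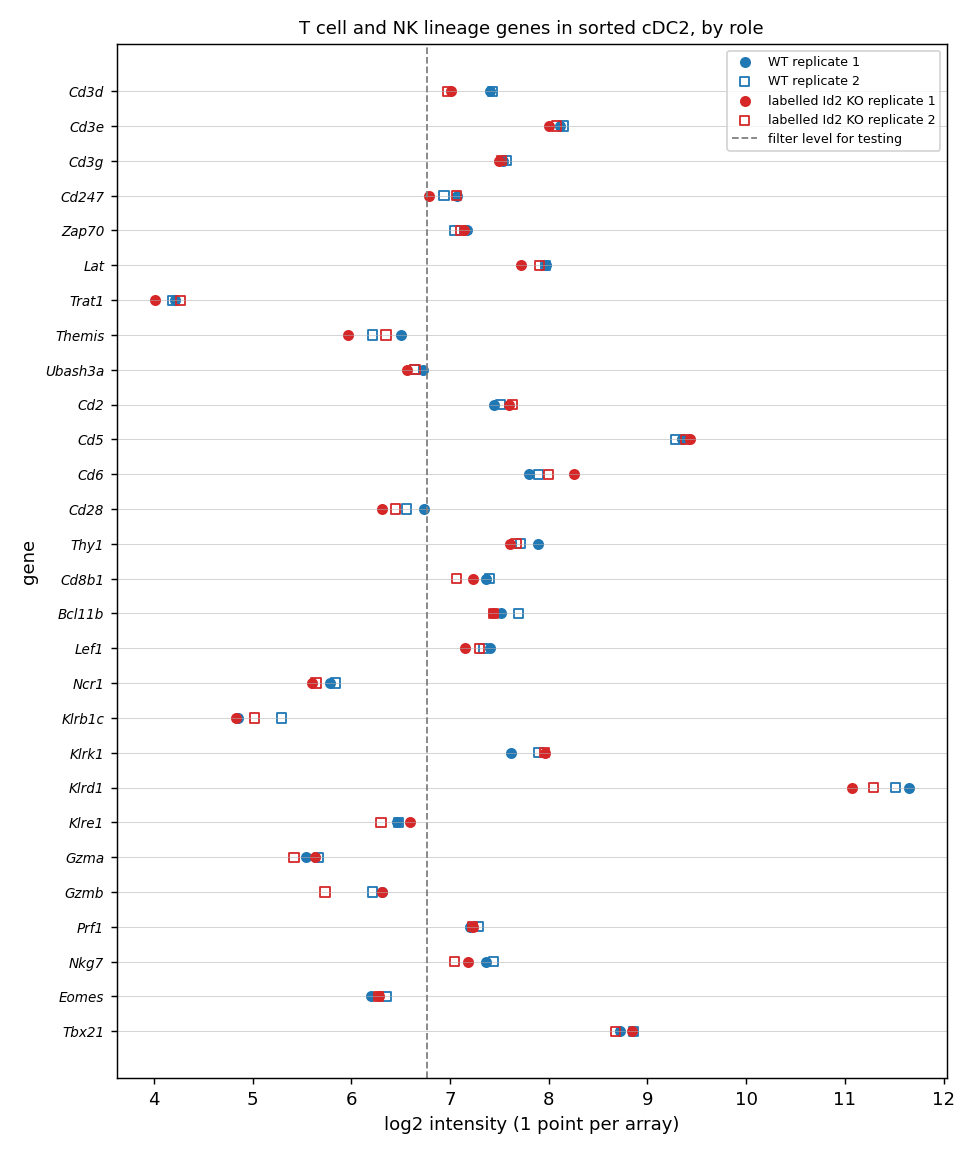
The log2 intensity (horizontal axis) of the 28 measured genes is shown with 1 point per array, WT in blue and the KO-labelled arrays in red, and genes ordered by role. The dashed line is the filter level of 6.77, and 10 genes lie below it in their mean, while Klrd1 stands above 11 on all arrays.

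The level of a probe set depends on how well its probes bind, so the position of a gene among all genes describes the array and is no ranking of transcripts. In the mean of the 4 arrays Klrd1 lay at the 98.4th percentile of all genes, Cd5 at the 86.7th, Tbx21 at the 79.0th and Cd3e at the 67.8th. The other tested members lay between the 45.1st percentile (Cd247) and the 66.0th (Cd6). The 10 members below the filter reached from the 2.91st percentile (Trat1) to the 36.8th (Ubash3a), and they include the NK receptor genes Ncr1 and Klrb1c and the granzyme genes Gzma and Gzmb. Arrays have no true zero and no background was measured beside a probe set, so it is not known whether these genes were expressed at all. The same limit holds for tested members a little above the filter level of log2 6.77. Cd3d in the KO-labelled arrays (7.01 and 6.97) is among them, and Xist was at 6.67 and 6.68 on those arrays. In sorted bulk samples, fewer cells of a type and less RNA per cell cannot be told apart.

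Among the chains of the T cell receptor complex 4 genes were tested, and the single gene Cd3d was lower, beside 2.52% of all tested genes. The promoters of these chains are shown because Id2 acts through E proteins, which bind E-box sequences such as CAGGTG and CAGCTG. Each line gives the 250 bases before the gene's start, read 5′ to 3′ along the gene's strand from RefSeq (GRCm38.p6), and capitals mark these letters on either strand (CAGGTG reads CACCTG on the other strand). The windows lie at chr9:44981536-44981785 on the plus strand for Cd3d, chr9:45009612-45009861 on the minus strand for Cd3e, chr9:44980432-44980681 on the minus strand for Cd3g and chr1:165788431-165788680 on the plus strand for Cd247.
Cd3d: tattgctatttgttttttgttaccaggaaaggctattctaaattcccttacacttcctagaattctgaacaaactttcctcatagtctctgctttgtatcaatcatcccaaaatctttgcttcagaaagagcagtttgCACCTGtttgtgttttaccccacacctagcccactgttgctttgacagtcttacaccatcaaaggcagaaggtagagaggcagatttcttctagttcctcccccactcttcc
Cd3e: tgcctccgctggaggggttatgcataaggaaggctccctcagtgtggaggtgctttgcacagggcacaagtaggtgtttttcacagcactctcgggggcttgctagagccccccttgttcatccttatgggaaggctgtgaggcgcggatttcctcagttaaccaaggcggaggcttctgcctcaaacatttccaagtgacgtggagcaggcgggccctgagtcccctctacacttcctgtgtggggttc
Cd3g: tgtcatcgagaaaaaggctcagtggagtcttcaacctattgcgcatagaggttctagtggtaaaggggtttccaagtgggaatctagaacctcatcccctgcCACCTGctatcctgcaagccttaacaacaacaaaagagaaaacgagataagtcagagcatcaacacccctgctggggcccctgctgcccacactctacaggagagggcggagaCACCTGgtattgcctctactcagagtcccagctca
Cd247: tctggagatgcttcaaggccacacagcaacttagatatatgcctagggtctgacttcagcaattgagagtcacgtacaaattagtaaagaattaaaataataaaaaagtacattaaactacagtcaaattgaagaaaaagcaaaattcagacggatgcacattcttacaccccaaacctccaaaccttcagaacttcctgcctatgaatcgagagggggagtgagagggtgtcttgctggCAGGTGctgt
The letters CAGGTG occurred 1 time upstream of Cd3d, 2 times upstream of Cd3g, 1 time upstream of Cd247 and 0 times upstream of Cd3e, and CAGCTG occurred in none of these windows. Cd3g, Cd3d and Cd3e are listed next to each other on chromosome 9. A match of letters is a description and not a binding site.

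Cd3d was at log2 7.41 and 7.43 in WT and at 7.01 and 6.97 in the KO-labelled arrays. Both WT arrays were above both others, and the replicates of a group lay within 0.05 of each other. The difference was -0.43 (95% interval -0.61 to -0.25, n = 2 per group; limma adjusted p = 0.0103). Without WT replicate 1 its adjusted p was 0.0693 and without WT replicate 2 it was 0.0712, at differences of -0.44 and -0.42. Over the alternatives in which Cd3d was tested, the lowest limma adjusted p was 0.00607. It came from pairing differently numbered replicates, a choice made after seeing the data.

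The neighbouring genes Cd3e and Cd3g did not pass. Cd3e was at 8.12 and 8.15 in WT and at 8.01 and 8.07 in the KO-labelled arrays, a difference of -0.10 (95% interval -0.28 to 0.09). Cd3g was at 7.54 and 7.57 in WT and at 7.49 and 7.52 in the KO-labelled arrays, a difference of -0.05 (95% interval -0.22 to 0.13). In both genes the groups did not overlap, as in 50.7% of all tested genes, and the gap between them was small. Cd247, the zeta chain, was at 7.07 and 6.94 in WT and at 6.79 and 7.07 in the KO-labelled arrays, with overlapping groups. Whether Cd3d differed more than the other chains was not tested.

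Of the 5 measured genes that pass the receptor's signal on, Zap70 and Lat were tested and did not pass, and Themis, Ubash3a and Trat1 lay below the filter. Zap70, the kinase that binds the CD3 chains, was at 7.17 and 7.05 in WT and at 7.14 and 7.11 in the KO-labelled arrays. Lat, the scaffold of the signal, was at 7.97 on each WT array and at 7.72 and 7.91 in the KO-labelled arrays, a difference of -0.15 (adjusted p = 0.392). Themis, a thymocyte signalling protein, had values from 5.97 to 6.50 and overlapping groups. Ubash3a, a negative regulator of T cell receptor signalling, lay between 6.57 and 6.73. Trat1, an adaptor that associates with the receptor, lay between 4.01 and 4.27, the lowest values among the members.

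The surface and costimulatory genes had differences of both signs, 3 above 0 and 3 below, and none of the 5 tested passed. Cd5, an inhibitory receptor of T cells that some dendritic cells and B cells also carry, was at 9.35 and 9.29 in WT and at 9.43 and 9.38 in the KO-labelled arrays. Its difference was 0.09 (95% interval -0.10 to 0.27). Cd6, a related receptor, was at 7.80 and 7.89 in WT and at 8.25 and 8.0 in the KO-labelled arrays, a difference of 0.28 (95% interval 0.05 to 0.51; adjusted p = 0.155). KO replicate 1 was the high array of Cd6, and without KO replicate 2 the gene passed (difference 0.40, adjusted p = 0.0337), in a range of adjusted p up to 0.577 over the alternatives.

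Cd2, an adhesion receptor, was at 7.44 and 7.51 in WT and at 7.60 and 7.63 in the KO-labelled arrays, a difference of 0.14 that did not pass. Cd8b1, the beta chain of the CD8 coreceptor of cytotoxic T cells, was at 7.37 and 7.40 in WT and at 7.23 and 7.07 in the KO-labelled arrays. Its difference of -0.23 (95% interval -0.43 to -0.03) did not pass after adjustment (adjusted p = 0.168). Thy1, a surface protein of T cells and other lymphoid cells, differed by -0.16 and did not pass. Cd28, the costimulatory receptor, was below the filter at 6.74 and 6.56 in WT and at 6.31 and 6.45 in the KO-labelled arrays, and it did not pass in the fit of all genes (adjusted p = 0.218).

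The transcription factor genes of T cell identity had differences below 0 that did not pass. Bcl11b, which commits progenitors to the T lineage, was at 7.52 and 7.69 in WT and at 7.43 and 7.44 in the KO-labelled arrays (difference -0.17, adjusted p = 0.322). Lef1, a transcription factor of the Wnt pathway, was at 7.40 and 7.34 in WT and at 7.15 and 7.30 in the KO-labelled arrays (difference -0.15, adjusted p = 0.391). The groups did not overlap in either gene, which was also so for 50.7% of all tested genes.

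**Figure D2:**
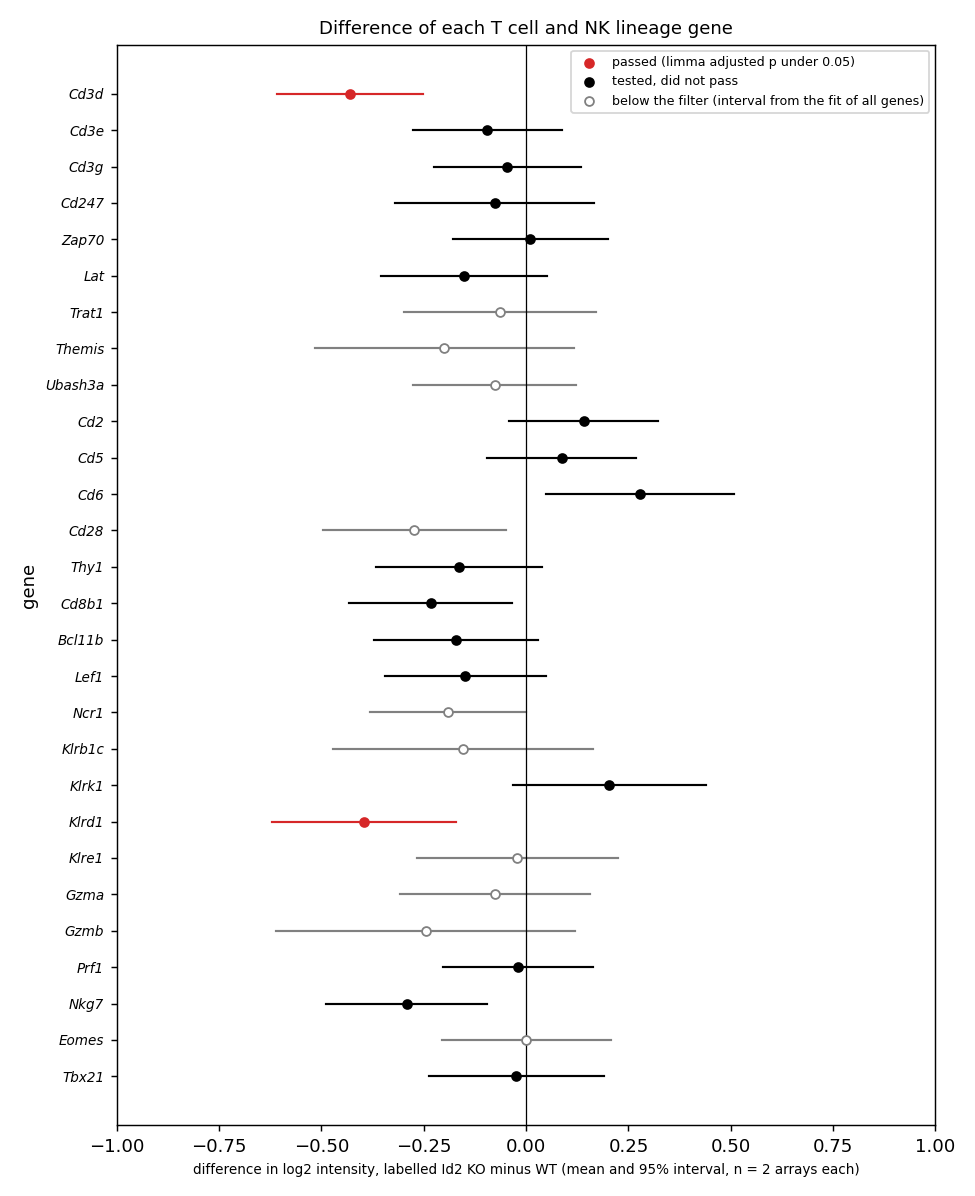
The difference in log2 intensity (labelled Id2 KO minus WT, horizontal axis) of the 28 measured genes is shown with its 95% interval, n = 2 arrays per group. Cd3d and Klrd1 (red) passed, the other 16 tested genes (black) did not, and the 10 open grey points are genes below the filter.

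Of the NK receptor genes 2 were tested, and the single gene Klrd1 was lower, beside 2.52% of all tested genes. Klrd1 encodes CD94, which pairs with NKG2 proteins to bind a non-classical MHC class I molecule. It was at log2 11.65 and 11.51 in WT and at 11.07 and 11.29 in the KO-labelled arrays. Both WT arrays were higher, and the KO arrays were 0.22 apart. Its difference was -0.40 (95% interval -0.62 to -0.17; limma adjusted p = 0.0440). The call was lost without a filter (limma adjusted p = 0.0782) and with the replicate number as a block (0.110). It was also lost without WT replicate 1 (difference -0.33), without WT replicate 2 (-0.47) and without KO replicate 1 (-0.29). The lowest adjusted p over all alternatives, 0.0103, came from pairing differently numbered replicates, a choice made after seeing the data.

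Of the genes listed on either side of Klrd1 on chromosome 6, Klrk1 did not pass and Klre1 lay below the filter, and whether they differed less than Klrd1 was not tested. Klrk1 encodes the activating receptor NKG2D and was at 7.61 and 7.90 in WT and at 7.96 in both KO-labelled arrays (difference 0.20, 95% interval -0.03 to 0.44). Klre1, a receptor chain that pairs with the products of Klri1 and Klri2, was below the filter between 6.30 and 6.60, with overlapping groups. Ncr1, which encodes the NK receptor NKp46, was at 5.79 and 5.84 in WT and at 5.61 and 5.64 in the KO-labelled arrays, and did not pass in the fit of all genes (adjusted p = 0.340). Klrb1c, the NK1.1 antigen of some mouse strains, lay between 4.83 and 5.30. Klr genes are close relatives, and probes of 1 may bind transcripts of another.

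None of the tested granule and T-box genes passed. Nkg7, a granule membrane protein of cytotoxic cells, was at 7.36 and 7.44 in WT and at 7.18 and 7.04 in the KO-labelled arrays. Its groups did not overlap, as in 50.7% of all tested genes. Its difference of -0.29 (95% interval -0.49 to -0.10) did not pass (limma adjusted p = 0.0810). Prf1, the gene of perforin, lay between 7.21 and 7.29 on all arrays. Gzma lay between 5.42 and 5.67. Gzmb, a granzyme gene that plasmacytoid dendritic cells can also express, was between 6.22 and 6.32 on 3 arrays and at 5.73 on KO replicate 2.

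Tbx21, the T-bet gene, was bright and even, at 8.72 and 8.86 in WT and at 8.85 and 8.68 in the KO-labelled arrays. Its difference was -0.02 (95% interval -0.24 to 0.19). The related factor gene Eomes, which NK cells and memory T cells use, was below the filter between 6.20 and 6.36, with a mean of 6.28 in both groups.

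Across the members the differences were small. All 28 lay between -0.43 (Cd3d) and 0.28 (Cd6), with a median of -0.09, beside -0.01 over all 19938 genes. Of the 28, 22 were below 0, as were 54.3% of all genes, 47.9% of the tested genes and 63.8% of those below the filter. The groups did not overlap in 16 of 28 members, 12 lower and 4 higher, while 44.2% of all genes did not overlap, 23.2% lower and 20.9% higher. Of the 18 tested members 14 did not overlap, beside 50.7% of all tested genes. For each of the 16 tested members that did not pass, the 95% interval lay within a 1.5-fold change in intensity either way. These intervals are unadjusted, and how closely intensity follows the amount of RNA at these levels was not tested. The median half-width of the intervals of the 18 tested members was 0.20 on the log2 scale. The summed intensity of the 17 measured T cell genes was 3290 and 3233 in WT and 3131 and 3170 in the KO-labelled arrays. That of the 11 NK, granule and T-box genes was 4509 and 4338 in WT and 3539 and 3780 in the KO-labelled arrays, and the bright Klrd1 holds most of this sum.

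**Figure D3:**
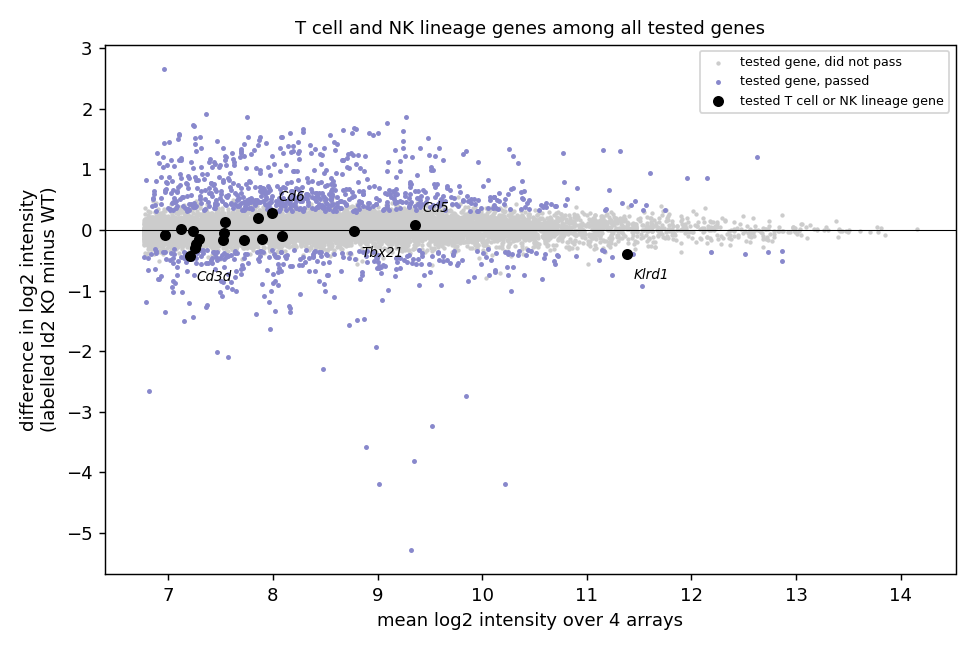
Each point is a tested gene, with its mean log2 intensity over 4 arrays on the horizontal axis and its difference (labelled Id2 KO minus WT) on the vertical axis. The 18 tested T cell and NK lineage genes (black) lie near 0, between -0.43 and 0.28, while called genes (violet) reach -5.28 (Xist) and 2.66 (Kdm5d).

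The RefSeq promoters used here covered 24 of the 30 listed genes, 34 windows in all. Klrd1, the other member that passed beside Cd3d, was not among them, so its promoter was not searched. CAGGTG was found in 10 of the 34 windows (29.4%), beside 17.2% of 32841 promoter windows of the same 250 bases. CAGCTG was found in 3 (8.82%), beside 13% (both strands searched, a window can hold both motifs). Some genes have several windows, which are not independent. By gene, CAGGTG was found in 9 of 24 members, beside 5250 of 27018 genes, and CAGCTG in 3, beside 3979. Lck and Tcf7, which were not measured, are among the 24. The 9 genes with CAGGTG were Cd3d, Cd3g, Cd247, Lck, Zap70, Cd5, Gzma, Prf1 and Tbx21. Of the 8 that were measured, Cd3d fell and the others did not pass or lay below the filter. A link between these letters and the differences was not tested.

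Other genes of T cells, from a list written with the members, gave 2 higher and 1 lower among 13 tested of 21 measured. Of all tested genes, 5.53% were higher and 2.52% lower. The lower gene, Cd4, is also counted among the lower cDC2 genes above. Cd4, the coreceptor of helper T cells that many splenic cDC2 also carry, was at 10.30 and 10.28 in WT and at 9.25 and 9.65 in the KO-labelled arrays, and fell by 0.84 (adjusted p = 0.00323). Rasgrp1, a Ras activator downstream of antigen receptors in T and B cells, was at 8.78 and 8.97 in WT and at 9.40 and 9.50 in the KO-labelled arrays. It rose by 0.58 (adjusted p = 0.00533), a call lost without WT replicate 1 (adjusted p = 0.0562). Il7r, the interleukin 7 receptor gene of lymphoid progenitors and T cells, was at 7.38 and 7.64 in WT and at 7.89 and 8.11 in the KO-labelled arrays. It rose by 0.49 (adjusted p = 0.0308), a call lost without a filter (0.0534), without WT replicate 1 (0.237) and without KO replicate 2 (0.0873). B cell markers were also higher in the KO-labelled arrays, and a link between them and Rasgrp1 or Il7r was not tested. The median difference of the 21 genes was -0.10. Constant genes of the T cell receptor were not analysed here.

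Other genes of NK cells and ILC gave 2 lower and 0 higher among 11 tested of 24 measured, beside 2.52% and 5.53% of all tested genes. Their median difference was -0.13 over the 24. At an unadjusted p under 0.05 in limma, 5 of the 11 were lower and 0 were higher, beside 7.61% and 13.1% of all tested genes. Klrb1f, a lectin-like receptor gene of the NKR-P1 family, was at 9.0 and 8.87 in WT and at 8.17 and 7.91 in the KO-labelled arrays. It fell by 0.90 (95% interval -1.14 to -0.66; adjusted p = 8.93e-04), and it passed in each of 13 alternatives, with adjusted p from 1.29e-04 to 0.0100. Klri1 was at 10.93 and 10.67 in WT and at 10.38 and 10.43 in the KO-labelled arrays. It fell by 0.39 (adjusted p = 0.0474), a call lost in 5 of 13 alternatives, namely without a filter, with the replicate block, without WT replicate 1 and without either KO replicate, with adjusted p up to 0.347. Klri2, its neighbour, was at 9.11 on each WT array and at 8.99 and 9.09 in the KO-labelled arrays, and did not pass. Klrc2, an NKG2 gene, and the interleukin 18 receptor gene Il18r1 lay below the filter with differences of -0.45 and -0.43, and in the fit of all genes Il18r1 passed (adjusted p = 0.0362) and Klrc2 did not (adjusted p = 0.0682).

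**Figure D4:**
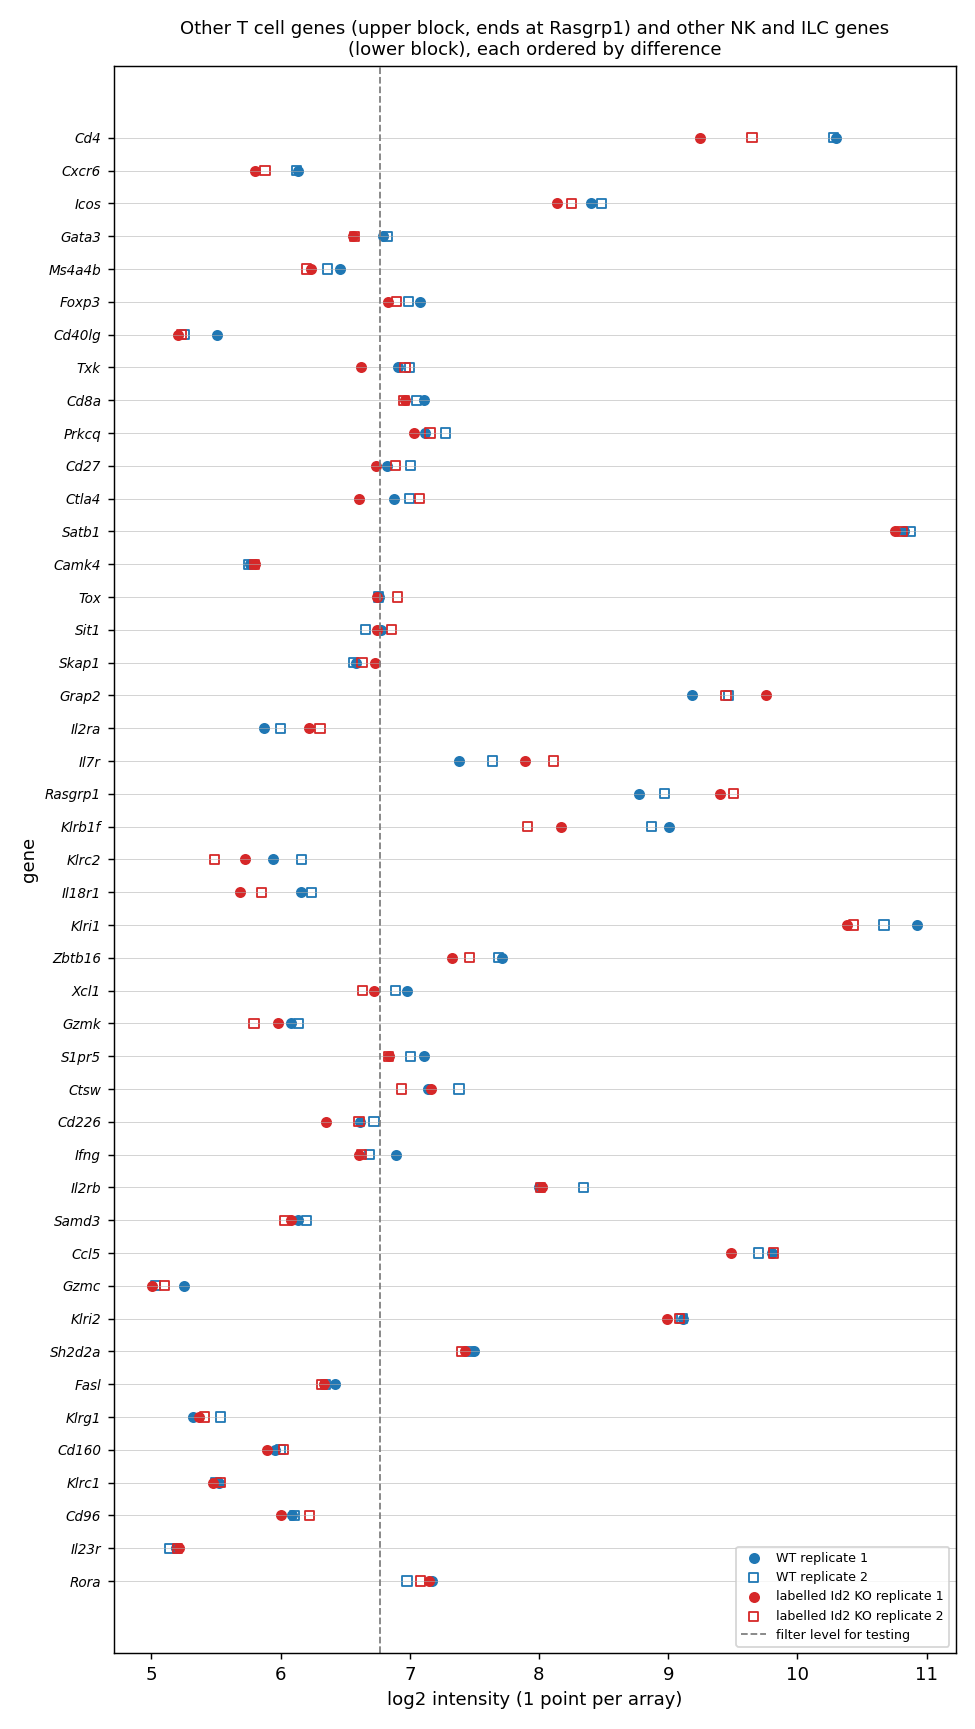
The log2 intensity (horizontal axis) of 21 other T cell genes and 24 other NK and ILC genes is shown with 1 point per array, WT in blue and the KO-labelled arrays in red, and the dashed line marks the filter level of 6.77. Cd4 and Klrb1f lead their blocks with WT above the KO-labelled arrays, and Rasgrp1 and Il7r show the reverse order.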

How the data were processed

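Expression was measured on Affymetrix arrays, 1 per sample, with 2 WT arrays and 2 KO-labelled arrays. Per the labels' protocols, cDC2 were sorted by flow cytometry and biotinylated cDNA was made from total RNA with a NuGen Ovation PicoSL amplification system, which can shift the levels of some transcripts. The authors' deposited values are 1 linear intensity per probe set and array. The submitters' processing notes name Affymetrix Expression Console and RMA without versions. RMA scales arrays to each other, so a change in total RNA per cell is largely removed. Array medians were between 128 and 134. Detection calls were not used here.

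The log2 of each intensity was taken without an offset. Of 28853 probe sets, 21789 had 1 gene symbol in the platform annotation, 1621 had several and 5443 were not listed, and each measured member had a single probe set. Symbols were updated through a RefSeq gene table (21698 matched). Genes whose mean exceeded the 40th percentile were tested with limma 3.58.1 in R 4.3.3 (lmFit, eBayes), two-sided, with Benjamini-Hochberg adjustment, 2 residual degrees of freedom per gene and 6.77 added by the moderation. Intervals are 95% intervals, unadjusted, from this fit, or from the fit of all 19938 genes for genes below the filter. Precision is limited by the number of arrays. The procedure was run on simulated arrays in which every gene had the same spread, unlike the real arrays. That run does not show how often the calls here are right. Named genes were all members, Id2, and from the lists of other T cell, NK and ILC genes those past the threshold and the 3 largest differences. Members and lists were chosen with earlier results of these data known. Xist, Kdm5d, Klri2 and the marker genes outside that rule were named after their values were seen. Same-numbered replicates are not said to be paired. The alternatives changed the filter, the scaling, the probe set rule, the moderation, the offset, the replicate block and the arrays used.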

Additional observations from a re-analysis of the deposited data

How the results depend on the processing

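With each array left out in turn, 459 to 1171 genes changed, 0 to 2 members were lower, 0 to 1 were higher, and 2 to 5 of the other T cell, NK and ILC genes changed. The low ends came without WT replicate 1 (459 genes and 2 other genes) and, for genes, also without WT replicate 2 (627). The median difference of the members then lay between -0.141 and -0.0608, and that of Id2 between -0.40 and -0.14, with Id2 past the threshold without KO replicate 2 (adjusted p = 0.0326). The count of lower members was 1 without a filter (Cd3d), 1 with a filter at the 60th percentile (Klrd1, since Cd3d was then not tested) and 1 with the replicate block (Cd3d), where 684 genes changed instead of 962. Quantile normalization again, median-centred arrays, the mean of probe sets, an intensity trend and an offset of 50 each left Cd3d and Klrd1 as the called members. The deviations of same-numbered arrays from their group means correlated weakly below 0 (-0.14 over 11963 genes), and the crossed pairing, chosen after seeing the data, gave 1380 changed genes and 3 lower members. With 2 arrays a group, precision is set by their number, and the levels of the members, below the filter or above it, have no measured background.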

Other observations

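The Klr genes as a family, taken by symbol after the values were seen, comprised 23 measured genes. Klra3, an inhibitory Ly49 receptor gene of NK cells, was at log2 7.90 and 8.05 in WT and at 7.87 and 7.88 in the KO-labelled arrays and did not pass (adjusted p = 0.585). Klra2, another Ly49 gene, lay below the filter at 5.45 and 5.59 in WT and at 5.06 and 4.94 in the KO-labelled arrays, a difference of -0.52 that passed in the fit of all genes (adjusted p = 0.0144). Klra17, a Ly49 gene expressed by plasmacytoid dendritic cells and other myeloid cells, lay below the filter at 6.49 and 6.50 in WT and at 6.18 and 6.27 in the KO-labelled arrays and did not pass there (adjusted p = 0.156). Klrb1b, an inhibitory NKR-P1 receptor gene, was at 6.95 and 6.93 in WT and at 6.91 and 7.03 in the KO-labelled arrays. Of 19 Klr genes other than the 4 members, 5 were tested, and Klrb1f and Klri1 were lower by the test, as were 2.52% of all tested genes.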
